A study of Xenopus laevis with 2 samples.

Results

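Of the 45100 genes listed for sorted spinal cord cells of *Xenopus laevis*, 108 had between 100 and 1000 expected counts in the EGFP- library and exactly 0 in the EGFP+ library. These 108 genes were chosen by that rule, which took an expected count of at least 100 and under 1000 in EGFP- cells and a count of 0 in EGFP+ cells, so their difference between the libraries is a description and was not tested. They were 0.888% of the 12167 genes with an EGFP- count in that range. Both samples came from spinal cords at NF stage 50, a regenerative larval stage, of animals that carry the transgene Xla.Tg(Dre.gfap:EGFP)Larra, also called zGFAP::EGFP. In this transgene, regulatory sequence of zebrafish gfap, a glial gene, drives EGFP, and the labels name the sorted populations GFAP::EGFP+ and GFAP::EGFP-. The labels give no injury or treatment. Cells were pooled from many animals, cells of intermediate fluorescence were discarded, and each population was sequenced as 1 library, so no value has a replicate check.

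Radial glia line the central canal of the larval spinal cord and act as neural stem and progenitor cells. GFAP, an intermediate filament protein, is a classical marker of radial glia and astrocytes, which is why its regulatory regions are used to mark such cells. The paper cites evidence that Xenopus lost a GFAP gene in evolution, so EGFP here reports the zebrafish sequence. The EGFP- gate is defined by the lack of a signal, so it can hold every other cell that a dissected cord releases, such as neurons, oligodendrocytes, immune cells, vessel cells and blood. An expected count of 0 means that RSEM assigned no read to the gene, which is not the same as no read matching it. In such bulk samples, fewer cells of a type and less RNA per cell cannot be told apart.

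The libraries were of similar depth. Expected counts are the estimates of RSEM, which divides a read with several matching genes between those genes. They summed to 12242176 in EGFP- cells and 13705121 in EGFP+ cells. The sorted transgene EGFP reached 3376 counts among EGFP+ cells and 89 among EGFP- cells, in the direction of the labels. The floor used here, a count of 3, equals 2.45e-05% of the EGFP- total and 2.19e-05% of the EGFP+ total. Apart from EGFP, the files list gene identifiers without names, and 0 identifiers matched the gene name table, so no function and no cell type marker could be assigned and the labelled tissue could not be checked against markers. The genes are described here by level, counting and position, and 2 are given by identifier.

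Together the 108 genes held 25238 EGFP- counts, 0.206% of that library (95% Clopper-Pearson interval 0.204 to 0.209, counting error only). In the EGFP+ library they held 0 of 13705121 counts, which the rule had fixed. The floor of 3 counts, 2.19e-05% of that library, applies to a single gene and sets no limit for this sum. Counts from amplified reads are not independent molecules, so the intervals and limits given here cover counting error alone. The EGFP- counts of the single genes ran from 100 to 916.27 with a median of 168.5. Most lay in the low part of the range, since 66 genes (61.1%) had fewer than 200 counts and 7 had 500 or more. For folds, the EGFP+ count was set to the floor of 3 and both libraries were scaled by the median of ratios. At that floor, the genes were 35.8-fold to 328-fold lower in EGFP+ cells. The median of these folds was 60.3-fold. With the same EGFP+ value for all genes, they only rescale the EGFP- counts that the rule used. By the same measure, 3.57% of the 14220 genes with at least 100 EGFP- counts were lower in EGFP+ cells by 10-fold or more. All 108 genes met that mark because the rule had fixed it.

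Levels per length are given as TPM, a unit scaled to the same total in each library, which divides each count by the length of the gene's transcripts. In the EGFP- library the TPM of the 108 genes ran from 1.75 to 285.2, with a median of 12.37 and quartiles of 7.75 and 25.7. Only 3 genes stood above 100 TPM, 63 genes (58.3%) reached 10 TPM and 16 genes were under 5 TPM. The other 12059 genes in the same range of EGFP- counts had a median of 10.58 TPM, with quartiles of 5.91 and 19.7. For comparison, EGFP itself was at 19.59 TPM in the EGFP- library and at 769.57 TPM in the EGFP+ library. Added together, the 108 genes made up 2746 TPM in EGFP- cells and 0 in EGFP+ cells. The 3 genes above 100 TPM carried 28.0% of that sum, and the 10 highest carried 44.2%.

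The highest level belonged to Xelaev18045083m.g, with 916.27 EGFP- counts and 285.2 TPM, rank 384 among all genes of that library, against 0 counts and 0 TPM in EGFP+ cells. At the floor it was 328-fold lower in EGFP+ cells. The lower 95% Clopper-Pearson limit, taken at the observed EGFP+ count of 0 and not at the floor, was 266-fold for counting error. Its count was not whole, which means that RSEM divided some of its reads with other genes. Among the genes whose counts were whole, the highest count belonged to Xelaev18039168m.g, with 899 EGFP- counts and 88.56 TPM (rank 1143) against 0 in EGFP+ cells. At the floor it was 322-fold lower there, and the lower 95% limit, again taken at a count of 0, was 261-fold. Both genes were chosen by these same counts, which the limits do not take into account. These 2 genes had almost the same count and a level per length that differed by the ratio of their effective lengths, 377 and 1191 bases.

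The order by TPM was not the order by count. Of the 10 genes with the highest TPM, 4 were also among the 10 with the highest counts. The second highest level, 282.5 TPM, came from a gene with 158 counts, all whole, and an effective length of 65.6 bases. That gene was the 1 of the 108 with an effective length of 100 bases or fewer, and its TPM depends on this short length. At the other end, a gene with 253 counts stood at 2.17 TPM over 13686 bases, and a gene with 826 counts stood at 19.54 TPM over 4958 bases. In EGFP+ cells the lowest level that counts as detected therefore also differed from gene to gene. A count of 3 there corresponded to about 0.0258 TPM for the longest gene and 5.37 TPM for the shortest, with a median of 0.194 TPM. These values use effective lengths from the EGFP- library, which can differ from those of the EGFP+ library, most of all in proportion for the shortest gene.

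**Figure D1:**
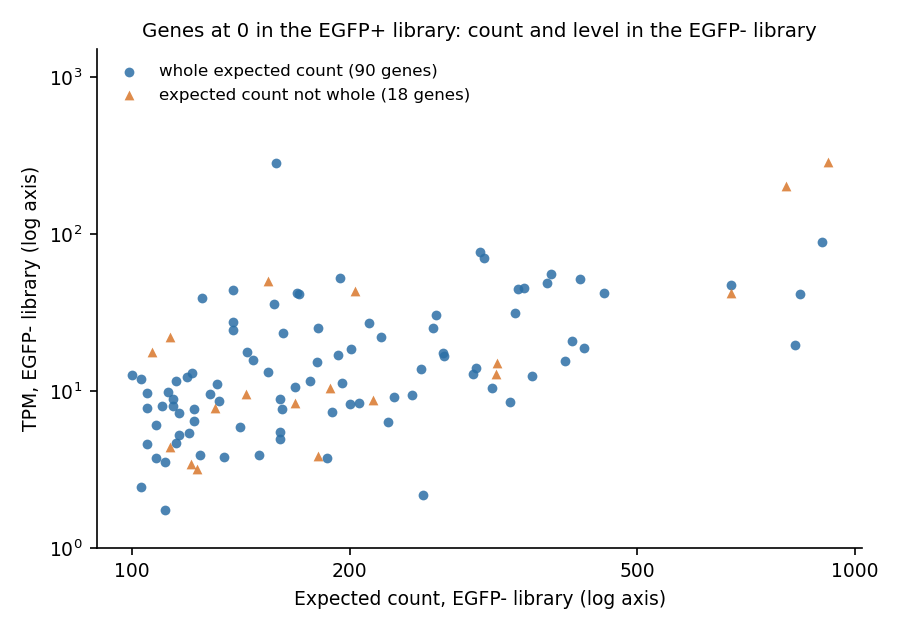
Each point is 1 of the 108 genes, with its expected count (x, log axis) and its TPM (y, log axis) in the EGFP- library; circles are the 90 genes with whole counts and triangles the 18 with counts that were not whole. All are at 0 in the EGFP+ library. The points at 285.2, 282.5 and 201.09 TPM stand above the others, the second of them at 158 counts.

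The effective length, the number of positions at which a fragment can start, followed from each gene's count and FPKM (fragments scaled to gene length and to library depth). It had a median of 1816 bases over the 108 genes, with quartiles of 1004 and 2884 bases. The other 12059 genes of the same count range, with EGFP+ counts above 0, had a median of 3113 bases and quartiles of 1928 and 4932 bases. Effective lengths under 1000 bases were found for 27 of the 108 genes (25%) and for 946 of the others (7.84%). The medians were lower in every part of the count range, with 1775 against 2758 bases at 100 to under 200 counts, 2331 against 3122 at 200 to under 300, 1274 against 3254 at 300 to under 500, and 1675 against 3580 at 500 to under 1000. The last of these medians rests on 7 genes. At a like count, shorter genes have more TPM, and the median TPM of the 108 genes was higher than that of the others in each part, from 9.18 against 6.04 at the low end to 47.2 against 22.4 at the high end. Genes are not replicates, and these differences were not tested.

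**Figure D2:**
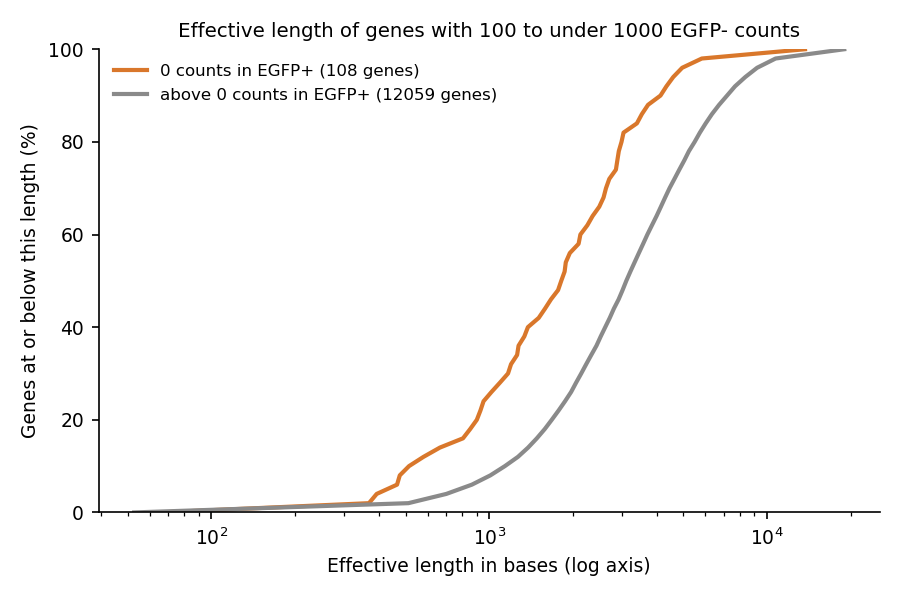
The share of genes (y, in percent) at or below each effective length (x, in bases, log axis) for the 108 genes at 0 in the EGFP+ library and for the 12059 other genes with 100 to under 1000 EGFP- counts. The curve of the 108 genes lies to the left, with medians of 1816 and 3113 bases.

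More genes stood at 0 in EGFP+ cells than at the lowest counts above it. Among the 12167 genes of the range, 108 had an EGFP+ count of 0, 26 had a count of 1, 43 had more than 1 and up to 3, 112 had more than 3 and up to 10, and 212 had more than 10 and up to 30. The lowest EGFP+ count above 0 was 1, so the rule had no near-zero fractions just outside it. Most genes of the range had far more, 5007 of them above 100 and up to 300 EGFP+ counts and 4931 above 300 and up to 1000. On the EGFP- side, the 4 lowest counts inside the rule were 100, 103, 103 and 105, and the 4 highest counts below it with 0 in EGFP+ cells were 99, 98, 97 and 95. Above the range, 8 genes with 1000 counts or more were also at 0 in EGFP+ cells, from 1123.92 to 12028.99 EGFP- counts. None of these 8 counts was whole.

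The share of genes at 0 in EGFP+ cells fell with the EGFP- count. It was 44.6% of 6048 genes with 1 to under 10 EGFP- counts, 7.21% of 9956 genes with 10 to under 100, 0.888% within the range described here and 0.390% of 2053 genes with 1000 or more. Inside the range it fell from 1.53% of 4326 genes under 200 counts to 0.271% of 2586 genes at 500 counts or more. The mirror image held no gene. Of 10992 genes with 100 to under 1000 EGFP+ counts, 0 were at 0 in EGFP- cells, and the lowest EGFP- count among them was 19.46. At 10 to under 100 counts, 55 of 8764 genes (0.628%) were at 0 in EGFP- cells, against the 7.21% the other way round. The sorted transgene EGFP was itself not at 0 in the EGFP- library, with 89 counts there against 3376. The reason for the asymmetry was not tested.

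Expected counts were whole, within 0.001 of a whole number, for 90 of the 108 genes (83.3%) in the EGFP- library. A whole count is what RSEM gives where none of a gene's reads is divided. Among the other genes of the range, 65.9% had whole EGFP- counts. Genes are not replicates, and this difference was not tested. The share was close to that of genes with few EGFP+ counts, 88.5% of the 26 genes at 1 count, 83.7% of the 43 genes above 1 and up to 3, and 82.1% of the 112 genes above 3 and up to 10. It was 69.6% of the 5007 genes above 100 and up to 300 EGFP+ counts and 53.8% of the 730 genes above 1000. By EGFP- count, whole counts were found for 55 of 66 of the 108 genes under 200 counts (83.3%, others 71.8%). They were found for 16 of 18 at 200 to under 300 (88.9%, others 66.7%) and 15 of 17 at 300 to under 500 (88.2%, others 64.5%). At 500 counts or more they were found for 4 of 7 (57.1%, others 56.6%), a share that rests on few genes. Reads divided with a gene that is present in EGFP+ cells can lift a count above 0, so the zero and the whole count are not separate measures.

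**Figure D3:**
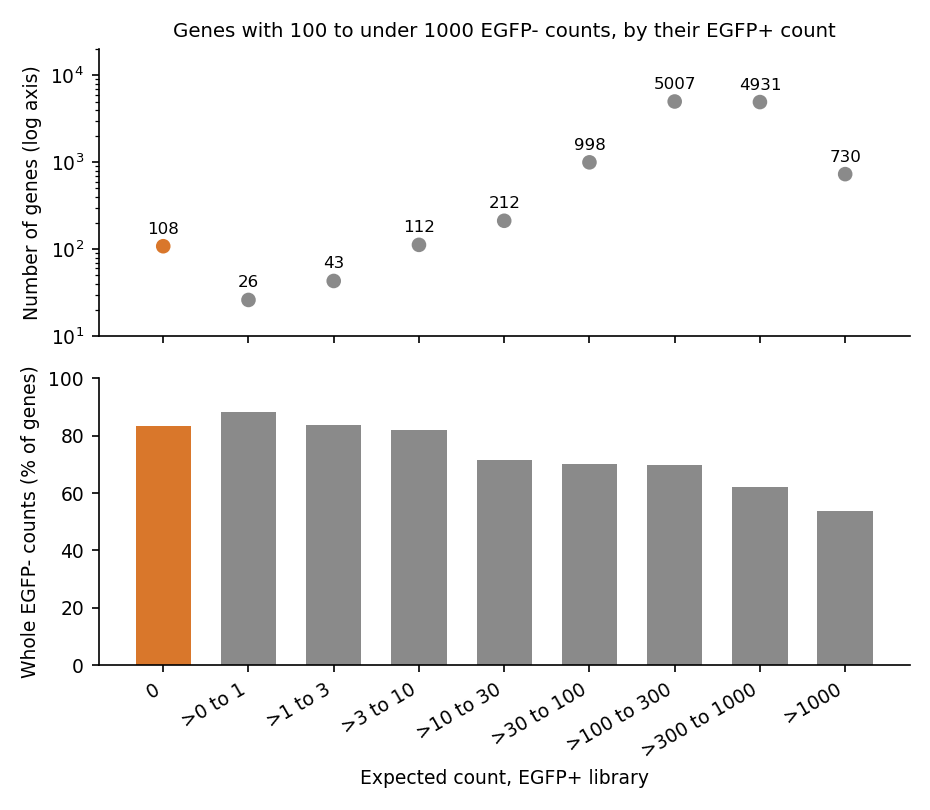
The genes with 100 to under 1000 EGFP- counts, split by their expected count in the EGFP+ library (x), with the number of genes (upper panel, log axis) and the percentage with whole EGFP- counts (lower panel). The genes at 0 are orange; they outnumber the 26 genes at 1 and the 43 above 1 and up to 3, and whole counts fall from 88.5% to 53.8% towards high EGFP+ counts.

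The 18 genes with counts that were not whole had a median of 174 EGFP- counts and 11.6 TPM, against 168.5 counts and 12.37 TPM for the 90 genes with whole counts. The 2 highest of the 18, at 916.27 and 803.70 counts, were neighbours in the identifier order. Of the 18, 3 lay within 0.05 of a whole number and 15 did not. For these 18 genes the EGFP- level depends on how RSEM divided the shared reads. Whether EGFP+ reads that match them were all assigned to other genes was not tested.

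The 45099 gene identifiers end in a running number, and the 108 genes were spread over nearly the whole of that order, from place 797 to place 44684. Whether neighbouring identifiers lie side by side in the genome was not tested. Split into 10 equal stretches, the order held from 6 to 17 of the genes in each. The share of the count range that they made up was highest in the third stretch, 17 of 1248 genes or 1.36%, and in the first, 10 of 764 genes or 1.31%. It was lowest in the second, 6 of 1172 genes or 0.512%. Successive genes of the set were a median of 322 places apart, and 10 of the 107 gaps were over 1000 places, the longest being 1817.

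**Figure D4:**
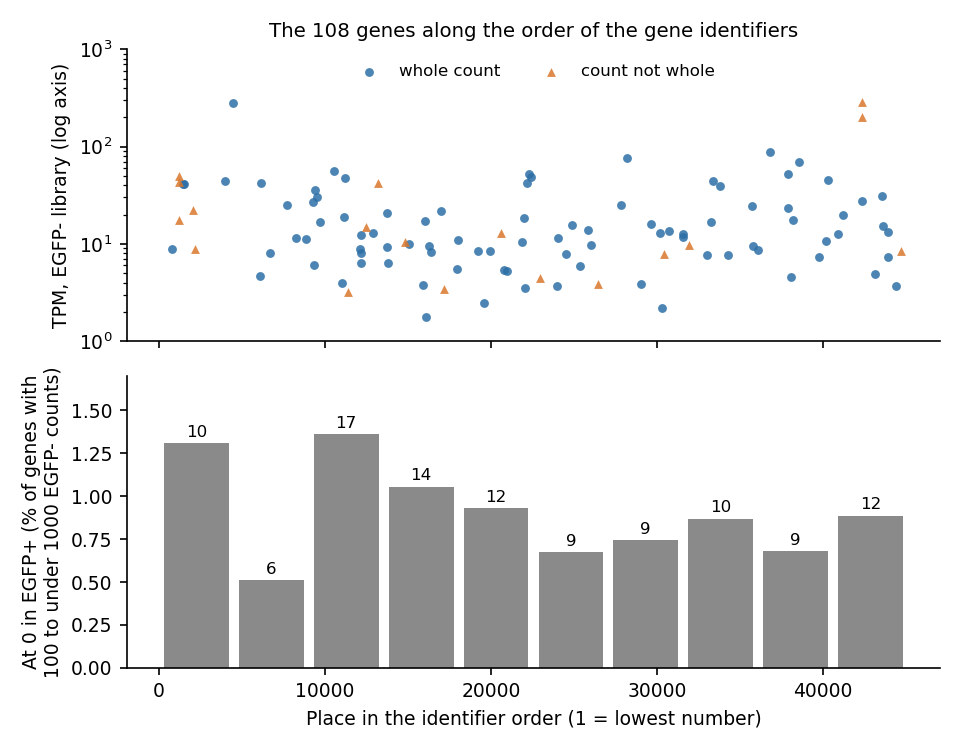
The place of each of the 108 genes in the identifier order (x) with its TPM in the EGFP- library (upper panel, log axis), and the percentage of genes with 100 to under 1000 EGFP- counts that were at 0 in EGFP+ cells in each of 10 equal stretches (lower panel, with the number of genes on each bar). The bars lie between 0.512% and 1.36%.

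Some of the genes lay close together. There were 3 adjacent pairs, formed by 1 run of 3 genes and 1 run of 2, and none of these 5 genes had a whole count. The run of 3 had 154.37, 203.18 and 106.63 EGFP- counts and levels of 50.18, 43.35 and 17.77 TPM, together 464.18 counts and 111.3 TPM. Within 5 places after its middle gene lay 3 further genes with few EGFP+ counts, with 48.82, 107 and 50.24 EGFP- counts against 6, 3 and 0. Not every gene nearby was low in EGFP+ cells. A gene 8 places before the middle gene had 222 EGFP- counts against 242, and a gene 10 places after it had 418.64 against 333.01. The run of 2 had 916.27 and 803.70 counts at 285.2 and 201.09 TPM, together 1719.97 counts. Neither sum is whole, so these genes shared reads beyond their own run. In all, 4 successive pairs were at most 5 places apart and 11 were at most 20 places apart.

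The run of 2 lay 15 and 14 places before the gene with the most counts of the EGFP- library, and another of the 108 genes lay directly after it. That most counted gene had 441913 EGFP- counts and 31 EGFP+ counts. Counting that gene itself, 5 genes within 20 places on either side had 1000 EGFP- counts or more. All 5 were at least 100-fold lower in EGFP+ cells. They held 617090 EGFP- counts, 5.04% of the library, against 48 EGFP+ counts. Of these EGFP- counts, 441913 were those of the most counted gene. The gene directly after the most counted one had 138 counts, all whole, and 27.63 TPM. The run of 2 was followed directly by a gene with 74111 EGFP- counts and 11 EGFP+ counts. Low EGFP+ counts did not extend to every gene there, since the 7 genes within 20 places that had 100 to under 1000 EGFP- counts and were not at 0 included 0 that were 10-fold or more lower in EGFP+ cells. The 3 genes of the set in this stretch had effective lengths of 377, 469 and 586 bases.

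**Figure D5:**
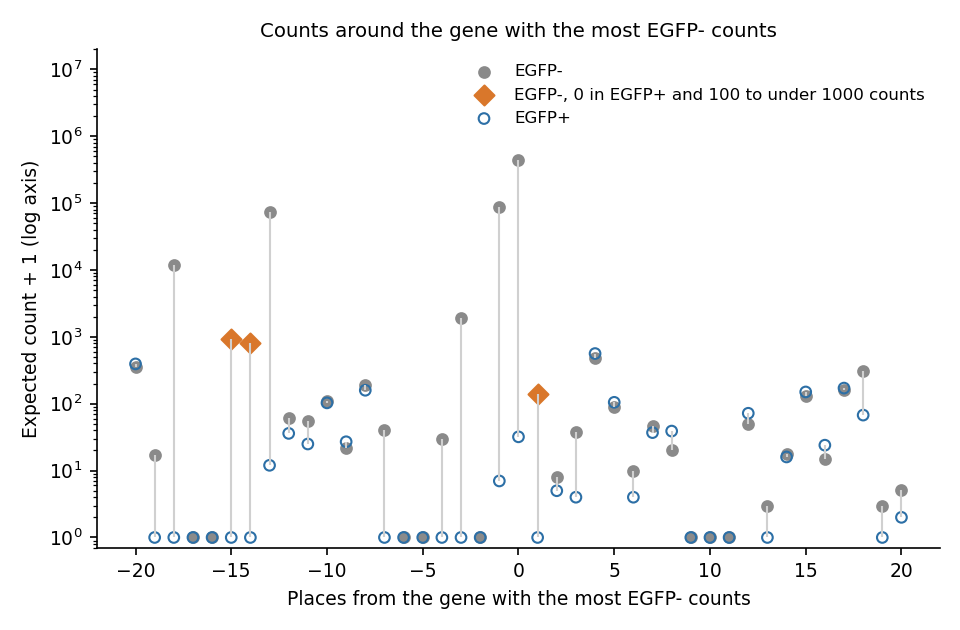
Expected counts plus 1 (y, log axis) in both libraries for the genes up to 20 places before and after the gene with the most EGFP- counts (x, in places), with grey lines joining the EGFP- and EGFP+ values of a gene. The 3 diamonds are genes of the set, at -15, -14 and 1 places, with 916.27, 803.70 and 138 EGFP- counts.

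The rule did not use the genes next to the set. Of the 210 identifiers directly beside the 108 genes and not among them, 68 had at least 100 EGFP- counts, and 10 of these (14.7%) were 10-fold or more lower in EGFP+ cells. Over all 14112 genes with at least 100 EGFP- counts outside the set, 400 were, or 2.83%. At 2 to 5 places the share was 13 of 273 genes (4.76%), at 6 to 10 places 6 of 324 (1.85%) and at 11 to 25 places 24 of 906 (2.65%). Without the 3 genes near the most counted gene, the share beside the others was 8 of 66 (12.1%). Of the 10 low neighbours, 8 had whole EGFP- counts.

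The 10 low neighbours lay beside 9 of the 108 genes. A gene with 138 EGFP- counts and 44.00 TPM had a low neighbour on both sides, with 958.54 counts against 15.14 before it and 805 against 8 after it. The short gene with 158 counts and 282.5 TPM followed a gene with 954 EGFP- counts and 8 EGFP+ counts. A gene with 221 counts and 21.92 TPM followed a gene with 2483 EGFP- counts and 1 EGFP+ count. In these cases the neighbour had several times more EGFP- counts than the gene of the set and had few EGFP+ counts without being at 0. Other low neighbours had fewer EGFP- counts than the gene of the set beside them. These had 191 counts beside 263, 123 beside 124, and 106 (against 6 in EGFP+ cells) beside 303. Another had 321 counts beside 112.99 and still had 31.01 EGFP+ counts. The rest lay in the stretch around the most counted gene. This comparison was chosen after the values were seen and was not tested.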

How the data were processed

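RNA of EGFP+ and EGFP- cells was measured in 1 library each, grouped by the genotype label. Per the methods, paired-end reads were mapped by the authors with Bowtie 1.2.2 against XL_9.1_v1.8.3.2, the J-strain transcriptome, and RSEM 1.3.0 estimated gene levels with default settings (versions per the labels). The authors deposited RSEM's expected counts, which are not normalized. They also deposited TPM and FPKM, both divided by gene length and depth. The methods name PolyA+ libraries, whereas the labels name total RNA and a kit for low RNA amounts, so the RNA selection behind the counts is unresolved. Genes at 0 are listed.

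Rows were matched by identifier in Python 3.11.15 with pandas 2.3.3. Size factors (0.965 for EGFP- and 1.04 for EGFP+) were medians of ratios over rounded counts. Folds set counts under 3 to 3. Effective length was the EGFP- count times 1e9, divided by FPKM and the total expected count. The scripts were tested on simulated data. Without replicates no test was run, and depth is the total expected count of each library. Scalings by TMM used edgeR 4.0.16 in R 4.3.3. The 2 identifiers given are the highest TPM and the highest whole count. Members, measures and lists were chosen with earlier results of these data known. Planned marker lists found no names to match. No sequence was matched to an identifier.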

Additional observations from a re-analysis of the deposited data

How the results depend on the processing

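No paired analysis was possible because there is 1 library a population, which also leaves no replicate to omit. Of 39 recomputed values, 30 stayed within the interval of the reported value, or within 1.5 times a reported count. For medians and the share of whole counts, that interval took genes as independent, so it is only a yardstick. Admitting EGFP+ counts under 0.5 could change no value, because the lowest EGFP+ count above 0 was 1. Its values are among the 30 for that reason alone, so the 30 is not a measure of robustness. Allowing up to 3 EGFP+ counts raised the number of genes from 108 to 177 and their share of EGFP- counts from 0.206% to 0.342%. A narrower range of 200 to under 500 EGFP- counts left 35 genes, 0.0854% of the counts, a median of 17.3 TPM, a median effective length of 2151 bases and 0 adjacent pairs, as fewer genes were admitted. The share was 0.227% when the 10 genes with the most counts were taken out of the total, and 0.191% without the 3 genes near the most counted gene, an alternative chosen after seeing the data. The median fold stayed between 56.1 and 62.9 under other scalings and with TPM. With the EGFP+ value set to the floor, these alternatives only rescale the EGFP- counts, and they too are among the 30. The share of whole counts stayed between 83.3% and 88.6%. The share of low direct neighbours was 14.7% at 5-fold (2.83% for all genes outside the set at 10-fold, 4.17% at 5-fold) and 11.8% at 20-fold (1.97%), also chosen after seeing the data. Depth limits the zero, since an EGFP+ level under 3 counts could not be told from it.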
